A study of Mus musculus with 16 samples.

Results

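The interleukin-1 and interleukin-18 system was followed through 10 genes: the ligands Il1a, Il1b and Il18, the secreted antagonists Il1rn and Il18bp, the receptor genes Il1r1, Il1r2 and Il1rap, and the processing genes Casp1 and Nlrp3. They were chosen by name, with earlier results of these data known, from the 12394 genes that 16 arrays could report. All 10 were measured, each through probe sets annotated to that symbol alone. Where a gene had several such probe sets, the one with the highest mean over the 16 arrays was used and the others served as a check. The cells were CD11b+ Gr.1- tumour-associated macrophages sorted from mouse gliomas, with 1 array per mouse, 8 mice given BLZ945 and 8 given vehicle. BLZ945 is an inhibitor of the receptor for colony-stimulating factor 1, and the labels give 200 mg by oral gavage daily for 7 days, without a body weight. Vehicle mice received captisol on the same schedule. Both groups were Nestin-Tv-a;Ink4a/Arf-/- mice of mixed background that had been injected intracranially with DF-1:RCAS-PDGF-B-HA cells at 5 to 6 weeks of age. In this model the virus that carries PDGF-B enters only cells that make its receptor Tv-a under the Nestin promoter, and loss of Ink4a/Arf and the PDGF-B tumour are shared by both groups. The BLZ945 group held 5 females and 3 males, 4 of them aged 11.29 weeks and 4 aged 13.14 weeks. The Vehicle group held 4 females and 4 males, 4 aged 11.29, 2 aged 11.43 and 2 aged 12.29 weeks.

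Interleukin-1 alpha and interleukin-1 beta are inflammatory cytokines that act on the same receptor, which pairs a ligand-binding chain, the product of Il1r1, with an accessory chain, the product of Il1rap. Il1rn encodes an antagonist that occupies the receptor without signalling, and Il1r2 encodes a decoy that binds the ligand and cannot signal. The precursors of interleukin-1 beta and interleukin-18 are cut to their active forms by caspase-1 inside inflammasomes such as the one built on the sensor NLRP3, and the protein encoded by Il18bp captures free interleukin-18. Macrophages and microglia are main sources of these cytokines in the brain, and transcript levels do not report cleavage or release.

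The deposited values are log2 expression values per probe set, and differences below are BLZ945 minus Vehicle in log2 units. The transcript of the drug's target, Csf1r, averaged 13.66 ± 0.12 in BLZ945 and 13.61 ± 0.14 in Vehicle (SD, n = 8 each), a difference of 0.06 (limma adjusted p = 0.730). Csf1r lies near the top of the scale, whose highest value was 14.3, so a change there may be understated. Of the macrophage markers, Itgam, which encodes the CD11b used in the sort, fell by 1.17 (adjusted p = 0.00807), and the other 7 of 8 did not pass. The cells of the 2 groups also differed in other marker lists. For the counts that follow, 5.34% of all genes fell. Among monocyte markers 2 of 6 measured fell, and the list mean ranged over 6.06 to 7.99 in BLZ945 mice, against 8.07 to 9.90 in Vehicle mice. Among markers of glioma cells and oligodendrocyte precursors 5 of 8 fell (list mean 4.51 to 6.06 in BLZ945, 5.94 to 7.58 in Vehicle), and among microglia markers 3 of 7 fell (9.23 to 10.55 in BLZ945, 10.14 to 11.10 in Vehicle). The brightest genes of these lists were Fn1 and Plac8 (-0.89 and -1.48, neither passing), Olig1 and Pdgfra (-1.95 and -2.71, both lower), and Fcrls and Cx3cr1 (-0.54 and -0.42, neither passing). The part of these shifts in the results that follow was not tested beyond the covariate fits given with them. Among neutrophil markers 0 of 9 passed in limma, where 7.94% of all genes did, and the list mean spanned 4.71 to 5.34 in BLZ945 and 4.33 to 5.81 in Vehicle. In sorted bulk RNA, fewer cells of a type and less RNA per cell cannot be told apart.

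Macrophages from BLZ945-treated gliomas carried more Il1b, Il1r1 and Il18bp transcript and less Il1rap, while Il1a, Il1rn, Il1r2, Il18, Casp1 and Nlrp3 did not pass the test. Il18bp was 3.66-fold and Il1b 2.06-fold higher on the linear scale, Il1r1 was 1.57-fold higher, and Il1rap was at 0.526 of its Vehicle level. Thus 4 of 10 genes passed, against 7.94% of all genes tested. By direction, 3 were higher, against 2.6% of all genes, and 1 was lower, against 5.34%. The members were chosen with earlier results of these data known, so these shares do not measure an enrichment. The members' median difference was 0.16 and that of all genes 0.07. In 0 of the 10 genes were the 8 BLZ945 mice wholly apart from the 8 Vehicle mice by value, against 1.36% of all genes with no overlap. The test was limma's moderated comparison over all 12394 genes with Benjamini-Hochberg adjustment at 0.05. Each of the 4 calls also held when any 1 of the 16 mice was left out, and none of the 4 held with age cohort, labelled tumour volume, or the mean of the monocyte, glioma or microglia markers as covariate. The values of those fits stand beside each gene.

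**Figure D1:**
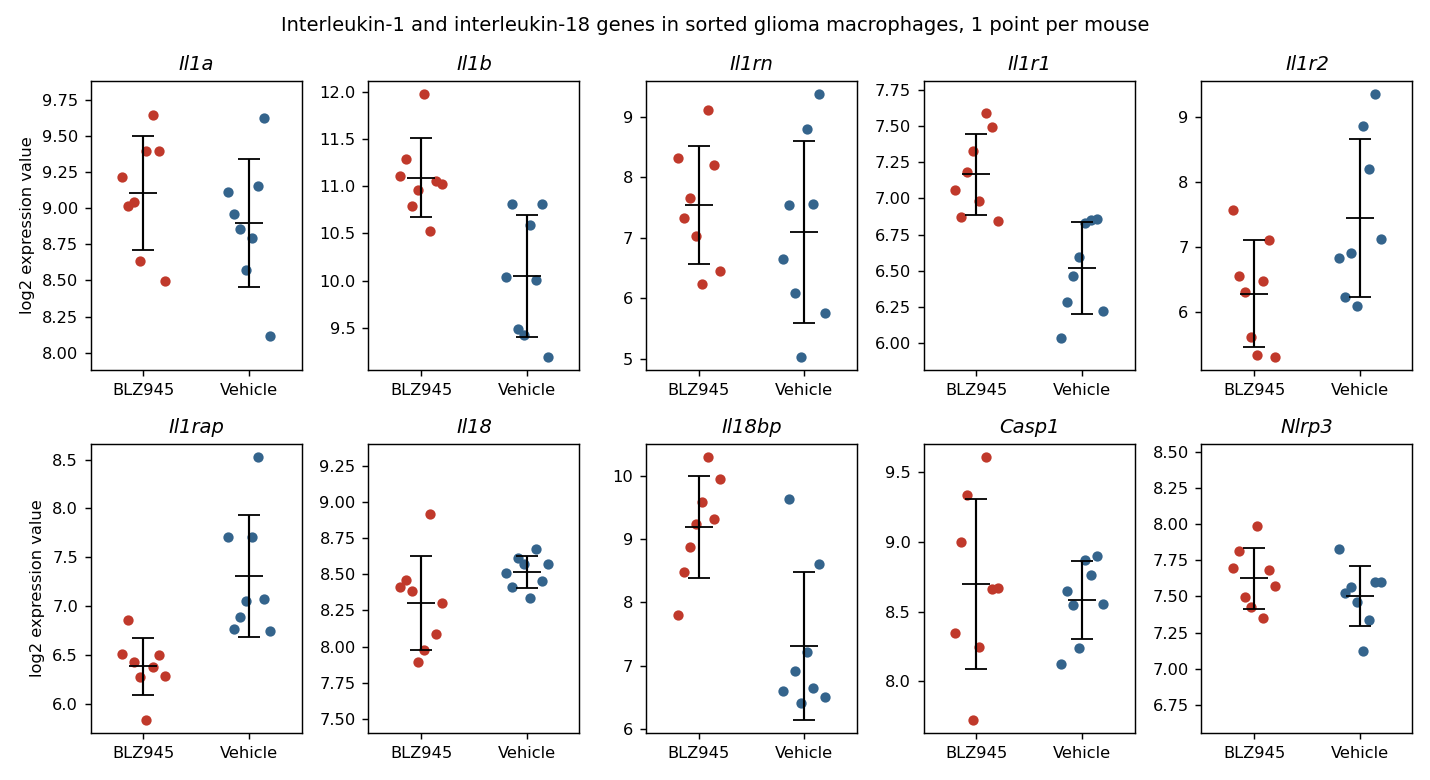
Log2 expression value of each of the 10 genes (vertical axes) in BLZ945 mice on the left and Vehicle mice on the right of each panel. Each point is 1 mouse, with points spread sideways only for visibility, and bars give the mean and SD of 8 mice. Il1b, Il1r1 and Il18bp sit higher and Il1rap lower in BLZ945, and every panel shows some overlap; the panels have their own vertical scales.

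The start regions of the 4 changed genes, 3 higher and 1 lower in BLZ945, are shown. All 10 genes had an entry in the RefSeq promoter table (GRCm38.p6), with 14 windows of 250 bases before to 50 after a listed start. Capitals mark the letters matched on either strand by any of 7 searched motifs. These were the NF-kB consensus, the AP1 letters TGANTCA, the GAS letters TTCNNNGAA, the CEBP letters TTNNGNAA and the TATA letters TATAAA. The ISRE, an interferon-response element, was searched as GAAA followed by any 2 bases and GAAA again. A core of PU1, a factor of the macrophage lineage, was searched as GGAAGT, and CEBP matches can overlap those of PU1 or NF-kB.
Il1b, chr2:129371090-129371389, minus strand: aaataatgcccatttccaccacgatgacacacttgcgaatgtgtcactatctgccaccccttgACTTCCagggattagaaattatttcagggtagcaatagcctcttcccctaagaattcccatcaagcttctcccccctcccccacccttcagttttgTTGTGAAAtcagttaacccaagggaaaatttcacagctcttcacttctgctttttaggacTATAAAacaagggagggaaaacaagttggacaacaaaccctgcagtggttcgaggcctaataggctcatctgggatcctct
Il18bp, chr7:102018183-102018482, minus strand: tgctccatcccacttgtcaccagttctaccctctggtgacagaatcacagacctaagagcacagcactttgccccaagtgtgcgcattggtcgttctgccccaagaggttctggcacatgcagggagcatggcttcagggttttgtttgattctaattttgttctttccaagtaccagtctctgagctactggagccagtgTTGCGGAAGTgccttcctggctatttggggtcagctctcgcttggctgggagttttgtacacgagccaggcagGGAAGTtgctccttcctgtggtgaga
Il1r1, the first listed start, chr1:40224830-40225129, plus strand: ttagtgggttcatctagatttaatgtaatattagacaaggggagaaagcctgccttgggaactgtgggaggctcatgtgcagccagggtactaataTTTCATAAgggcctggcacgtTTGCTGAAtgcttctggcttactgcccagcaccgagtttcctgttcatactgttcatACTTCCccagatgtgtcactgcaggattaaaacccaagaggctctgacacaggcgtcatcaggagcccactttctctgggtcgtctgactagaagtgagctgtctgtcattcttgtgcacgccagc
Il1r1, the second listed start, chr1:40266336-40266635, plus strand: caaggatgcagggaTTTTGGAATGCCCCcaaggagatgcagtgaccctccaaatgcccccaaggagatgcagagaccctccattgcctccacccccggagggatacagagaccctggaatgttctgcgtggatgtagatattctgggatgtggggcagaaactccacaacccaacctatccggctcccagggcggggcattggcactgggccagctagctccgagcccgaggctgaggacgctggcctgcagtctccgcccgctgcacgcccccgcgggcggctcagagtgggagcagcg
Il1rap, chr16:26581455-26581754, plus strand: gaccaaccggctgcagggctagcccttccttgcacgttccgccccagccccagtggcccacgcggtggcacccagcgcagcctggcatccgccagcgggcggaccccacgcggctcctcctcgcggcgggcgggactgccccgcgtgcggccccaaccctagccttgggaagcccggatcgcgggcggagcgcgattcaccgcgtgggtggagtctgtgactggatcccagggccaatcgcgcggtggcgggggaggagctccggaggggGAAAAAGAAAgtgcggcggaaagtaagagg
The Il1b window held a TATA match at 31 to 26 bases before the listed start, a CEBP match at 91 to 84 before it and a PU1 match at 187 to 182 before it. The Il18bp window held a CEBP match at 49 to 42 bases before the start that overlaps a PU1 match at 45 to 40, and another PU1 match 24 to 29 bases after it. The CEBP letters occur in 40.7% of the 32851 windows of this length in the table, the PU1 core in 23.8% and TATA in 13.6%. The NF-kB consensus, in 4.51% of windows, was matched in the second Il1r1 window, where it overlaps a CEBP match, and in 1 Nlrp3 window, which is not shown. The ISRE letters, in 3.44% of windows, were matched only in Il1rap among the 10 genes. The AP1 letters (7.81% of windows) were matched in Il1a and Il1rn, and the GAS letters (8.3%) in Il1r2. A match is a description of letters and was not tested as a site.

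Among the ligands of the interleukin-1 receptor, Il1b rose and Il1a did not pass. Il1b had a lowest, median and highest value of 10.53, 11.04 and 11.97 in BLZ945 mice, against 9.19, 10.02 and 10.82 in Vehicle mice. In 6 of 8 BLZ945 mice Il1b was above every Vehicle mouse, and BLZ945 5 was the highest. Its mean was 11.09 ± 0.42 in BLZ945 and 10.05 ± 0.64 in Vehicle (SD, n = 8 each), a difference of 1.04 (SE 0.25, adjusted p = 0.0123). With the mean of the neutrophil markers as covariate, Il1b differed by 1.07 (adjusted p = 0.00199). It differed by 0.17 with log2 labelled volume as covariate, 0.63 with microglia markers, 0.72 with age cohort, 1.01 with glioma markers and 1.09 with monocyte markers, without passing in any of these (adjusted p from 0.264 to 0.833). Il1a, the other agonist, which is active without cleavage by caspase-1, spanned 8.49 to 9.64 with a median of 9.13 in BLZ945 and 8.11 to 9.62 with a median of 8.91 in Vehicle. The groups overlapped almost fully, and the difference was 0.21 with a 95% confidence interval of -0.20 to 0.62 (adjusted p = 0.536). The 2 genes are direct neighbours on chromosome 2 in the RefSeq table.

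Il1rn, the receptor antagonist gene, varied widely among mice of both groups. Its lowest, median and highest values were 6.23, 7.49 and 9.12 in BLZ945 and 5.03, 7.09 and 9.38 in Vehicle, with BLZ945 6 and Vehicle 7 the highest of their groups. The difference of 0.44 had a confidence interval of -0.72 to 1.61 (adjusted p = 0.641), a width that 8 mice per group could not narrow. Its 2 other probe sets differed by 0.10 and 0.25 and did not pass either. Taken as the log2 value of Il1b minus that of Il1rn in each mouse, the balance of agonist and antagonist transcript shifted by 0.60 (SE 0.58, no test made). Its range was 1.42 to 5.75 among BLZ945 mice, against 1.43 to 4.40 among Vehicle mice, and 2 of 8 BLZ945 mice exceeded every Vehicle mouse.

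The receptor genes moved in different directions. Il1r1, the signalling receptor, had a lowest, median and highest value of 6.84, 7.12 and 7.59 in BLZ945, against 6.04, 6.53 and 6.86 in Vehicle. All but 1 of the BLZ945 mice were above every Vehicle mouse, and the ranges met at 6.84 and 6.86. Il1r1 averaged 7.17 ± 0.28 in BLZ945 and 6.52 ± 0.32 in Vehicle (SD, n = 8 each), 0.65 higher (SE 0.15, adjusted p = 0.0102). Il1r1 differed by 0.39 with age cohort as covariate, 0.41 with volume, 0.43 with monocyte, 0.44 with glioma and 0.53 with microglia markers (adjusted p from 0.268 to 0.711). Endothelial cells also express Il1r1. In limma 0 of 6 endothelial markers passed, against 7.94% of all genes, with a list mean of 5.44 to 5.89 in BLZ945 and 5.12 to 6.05 in Vehicle. The part of these cells in the Il1r1 values was not tested.

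Il1rap, the accessory chain that the receptors for interleukin-1, interleukin-33 and interleukin-36 share, was lower. Its values had a lowest, median and highest of 5.83, 6.40 and 6.86 in BLZ945, against 6.74, 7.06 and 8.53 in Vehicle. In 7 of 8 BLZ945 mice Il1rap was below every Vehicle mouse, and Vehicle 6 stood highest. It averaged 6.38 ± 0.29 in BLZ945 and 7.31 ± 0.62 in Vehicle (SD, n = 8 each) and fell by 0.93 (SE 0.22, adjusted p = 0.0138). The call rests on 1 of 3 probe sets: the others, with Vehicle means of 5.65 and 4.42, differed by -0.28 and -0.53 and did not pass (adjusted p = 0.350 and 0.275 over all probe sets). Their values correlated with those of the probe set used at r = 0.62 and 0.78 over the 16 mice, given as a description. The mean of the glioma and oligodendrocyte precursor markers ran from 4.51 to 6.06 in BLZ945 and from 5.94 to 7.58 in Vehicle mice. It can therefore hardly be told apart from the agent, and its part in the Il1rap values was not tested further. With that mean as covariate Il1rap differed by -0.26 (adjusted p = 0.856), in a fit chosen after the data were seen. It differed by -0.71 with monocyte markers, -1.05 with age cohort, -1.08 with microglia markers and -1.78 with volume as covariate (adjusted p from 0.0658 to 0.657).

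Il1r2, the decoy receptor gene, was lower on average and did not pass. Its lowest, median and highest values were 5.30, 6.39 and 7.57 in BLZ945 and 6.08, 7.00 and 9.35 in Vehicle. Vehicle 5, 6 and 7 were above every BLZ945 mouse, at 8.86, 8.20 and 9.35, and 3 BLZ945 mice were below every Vehicle mouse. Vehicle 5, 6 and 7 had labelled volumes of 20.65 to 27.3. Vehicle 3, 4 and 8, labelled 11.9 to 13.3, were at 6.90, 6.08 and 7.11, and Vehicle 1 and 2, without a label, at 6.82 and 6.23. The part of volume in the Il1r2 values was not tested. The difference of -1.16 had a confidence interval of -2.12 to -0.21 (adjusted p = 0.132), and an exact two-sided permutation test of Il1r2 alone over 12870 labellings gave an unadjusted p of 0.0424. Il1r1 and Il1r2 are direct neighbours on chromosome 1. Within each mouse, Il1r1 minus Il1r2 shifted upward by 1.82 (SE 0.45, no test made), and 5 of 8 BLZ945 mice exceeded every Vehicle mouse in it.

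In the interleukin-18 arm the antagonist gene rose and the cytokine gene did not pass. Il18bp had a lowest, median and highest value of 7.80, 9.27 and 10.30 in BLZ945, against 6.42, 6.78 and 9.62 in Vehicle. In 6 of 8 Vehicle mice Il18bp was below every BLZ945 mouse, and the exceptions were Vehicle 2 at 9.62 and Vehicle 7 at 8.60. Its mean was 9.19 ± 0.80 in BLZ945 and 7.32 ± 1.17 in Vehicle (SD, n = 8 each), a difference of 1.87 (SE 0.44, adjusted p = 0.0121). Leaving out 1 mouse at a time moved it between 1.71 and 2.20. Il18bp differed by 0.43 with microglia markers as covariate, 0.78 with volume, 1.16 with glioma markers, 1.64 with age cohort and 2.24 with monocyte markers (adjusted p from 0.203 to 0.695).

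Il18 spanned 7.89 to 8.92 with a median of 8.34 in BLZ945 and 8.34 to 8.68 with a median of 8.54 in Vehicle. In 4 of 8 BLZ945 mice Il18 was below every Vehicle mouse and in 1, BLZ945 6, above them all. The difference was -0.21 with a confidence interval of -0.48 to 0.05 (adjusted p = 0.335). Il18 minus Il18bp within a mouse shifted by -2.09 (SE 0.53, no test made), and 5 of 8 BLZ945 mice were below every Vehicle mouse in it.

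The processing genes did not pass. Casp1, the protease that matures both cytokines, spanned 7.73 to 9.61 with a median of 8.67 in BLZ945 and 8.13 to 8.90 with a median of 8.60 in Vehicle. BLZ945 mice lay on both sides of the Vehicle range, with 3 above and 1 below it, and Casp1 differed by 0.12 with a confidence interval of -0.34 to 0.58 (adjusted p = 0.757). Nlrp3, the inflammasome sensor, spanned 7.35 to 7.99 with a median of 7.63 in BLZ945 and 7.12 to 7.83 with a median of 7.54 in Vehicle. Its difference of 0.12 had a narrow interval of -0.12 to 0.37 (adjusted p = 0.536).

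**Figure D2:**
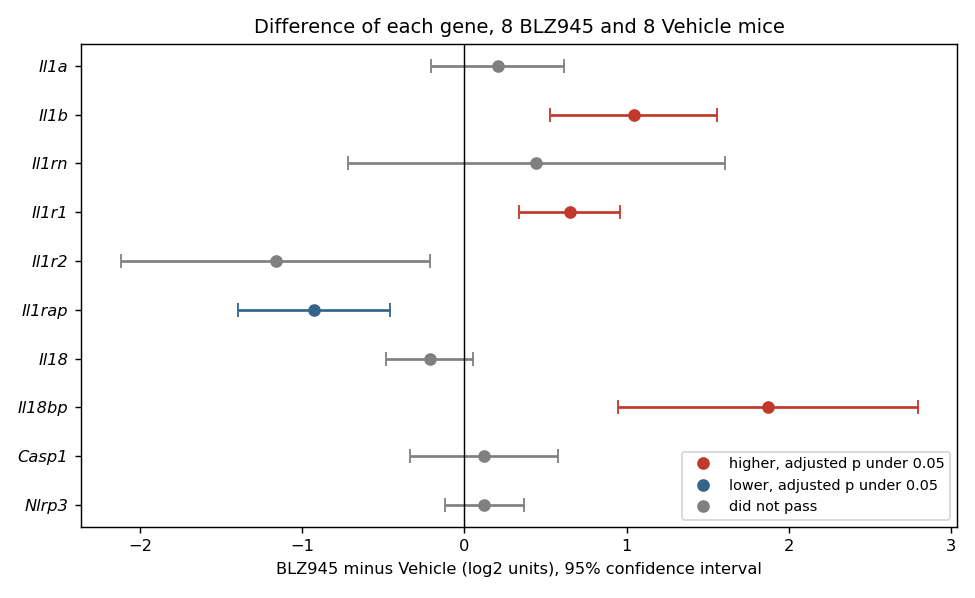
BLZ945 minus Vehicle difference of each gene in log2 units (horizontal axis), with points for the limma estimate and bars for its 95% confidence interval over 8 and 8 mice. Il1b, Il1r1 and Il18bp lie above 0 and Il1rap below it after adjustment over all genes; the interval of Il1r2 also lies below 0 but its adjusted p was 0.132.

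The 2 groups overlap in age only at 11.29 weeks, with 4 mice each, and their labelled initial tumour volumes, which carry no unit, do not overlap (41.3 to 132.3 in 8 BLZ945 mice, 11.9 to 27.3 in 6 Vehicle mice with a label). Volume and agent therefore cannot be told apart. Every BLZ945 value is above 40, the upper bound in mm3 that the protocol gives for enrolment, and no Vehicle value is, so whether the label refers to the same time in both groups is not known. Among the mice of 11.29 weeks all 4 changed genes kept their direction and 0 of 4 passed (limma adjusted p from 0.159 to 0.315), where 0.718% of all genes passed. All 4 had an unadjusted p under 0.05 there, as did 15.2% of all genes, and these mice are part of the comparison that called the 4. There Il1b differed by 0.72, with 10.93 ± 0.33 in BLZ945 and 10.21 ± 0.62 in Vehicle (SD, n = 4 each). Il18bp differed by 1.64, Il1r1 by 0.39 and Il1rap by -1.05. In the 9 females, 5 and 4, Il1b (1.49, adjusted p = 0.00841) and Il18bp (2.42, adjusted p = 0.00300) passed, where 3.17% of all genes did. In the 7 males, 3 and 4, 0 of the 4 passed by limma, where 0.0161% of all genes passed, and 2 of 4 had an unadjusted p under 0.05, as did 9.92% of all genes. The differences in males were 0.55 for Il1b, 0.68 for Il1r1 and -0.58 for Il1rap. Il18bp averaged 9.36 ± 0.91 in BLZ945 males (SD, n = 3) and 7.97 ± 1.43 in Vehicle males (SD, n = 4). The test of the difference between the sexes, an interaction term in limma, called 0 of 10 members (0% of all genes) and had 0 at an unadjusted p under 0.05 (3.34% of all genes). Each of the 5 covariate fits that ended the calls had 0 of 10 members past limma's threshold. With age cohort, whose agent term rests on the mice of 11.29 weeks, 1.73% of all genes passed, and 5 members had an unadjusted p under 0.05 (15.6% of all genes). With log2 labelled volume, over the 14 mice with a label, 0.121% of all genes passed, and 2 members had an unadjusted p under 0.05 (32.9% of all genes). In each of the marker fits 2 members had an unadjusted p under 0.05. The shares of all genes that passed and that had such an unadjusted p were 0.161% and 8.67% with monocyte, 0.888% and 10.7% with glioma, and 1.76% and 15.9% with microglia markers.

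**Figure D3:**
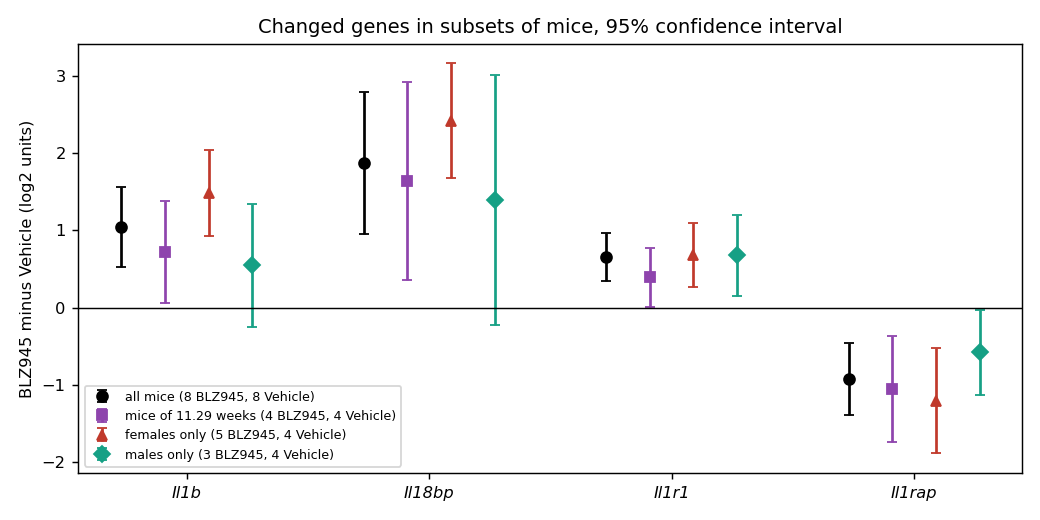
BLZ945 minus Vehicle difference in log2 units (vertical axis) of the 4 changed genes in all mice, in the mice of 11.29 weeks, in females and in males, with bars for the 95% confidence interval of limma. All estimates of a gene lie on the same side of 0, and the intervals of Il1b and Il18bp in males include 0.

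Other labelled properties of the mice gave no call among the 10 genes in the limma fits that were made. Females against males, with the agent as covariate, called 0 of 10 (0.0323% of all genes), with 1 at an unadjusted p under 0.05 (9.8% of all genes): Il1rn, 1.13 lower in females (adjusted p = 0.508). Within BLZ945, mice of 13.14 against 11.29 weeks called 0 of 10 (0.0403% of all genes). There 3 had an unadjusted p under 0.05, all lower in the older mice: Il1rn (-1.12), Casp1 (-0.75) and Il18 (-0.48), with adjusted p from 0.215 to 0.241, where 18.7% of all genes had an unadjusted p under 0.05. The slope on log2 labelled volume within BLZ945 called 0 of 10 (0% of all genes), with 0 at an unadjusted p under 0.05 (6.83% of all genes). No slope was fitted within Vehicle. In Vehicle 3, 4 and 8, labelled 11.9 to 13.3, Il1b spanned 9.19 to 9.49, Il1rn 5.03 to 6.08 and Il1r2 6.08 to 7.11. In Vehicle 5, 6 and 7, labelled 20.65 to 27.3, these genes spanned 10.00 to 10.81, 7.57 to 9.38 and 8.20 to 9.35. Il1r1, Il1rap and Casp1 also lay wholly higher in the latter mice, while Il1a, Il18, Il18bp and Nlrp3 overlapped. These ranges were read after the data were seen and were not tested.

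Genes around the 10 members were read from 5 lists. The covariate fits were read for the members only, so whether the calls in these lists hold in them was not checked. The lists were chosen with earlier results of these data known, so shares set beside those of all genes do not measure an enrichment. Of 21 measured NF-kB factors and targets, 4 rose and 0 fell, where 2.6% of all genes rose and 5.34% fell. The list median was 0.24 against 0.07 over all genes. NF-kB carries the signal of the interleukin-1 receptor and drives Il1b. Relb, a subunit of the alternative NF-kB pathway, averaged 7.13 ± 0.22 in BLZ945 and 6.34 ± 0.38 in Vehicle (0.80 higher, adjusted p = 0.00301). Rela, the main activating subunit, was 9.38 ± 0.16 in BLZ945 and 8.90 ± 0.14 in Vehicle (0.48 higher, adjusted p = 0.00464), with no overlap between the groups. The transcripts of Tnfaip3 and Tnip1, which encode the inhibitory protein A20 and its partner, rose by 0.71 and 0.41 (adjusted p = 0.0183 and 0.0422). The other 17 of the list did not pass.

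Of 12 measured inflammasome genes 1 rose (2.6% of all genes) and 1 fell (5.34% of all genes), with a median of 0.17. P2rx4, an ion channel opened by extracellular ATP, averaged 10.20 ± 0.19 in BLZ945 and 9.31 ± 0.28 in Vehicle (0.89 higher, adjusted p = 0.000304), and every BLZ945 mouse, at 9.85 or more, was above every Vehicle mouse, at 9.71 or less. Casp8, an apoptotic caspase that can also cut the interleukin-1 beta precursor, was 0.59 lower (adjusted p = 0.00694), at 9.11 ± 0.29 in BLZ945 and 9.70 ± 0.18 in Vehicle. Pycard, the adaptor that joins NLRP3 to caspase-1, differed by -0.10 (adjusted p = 0.591). P2rx7, the ATP-gated channel best known for activating that inflammasome, differed by 0.20 (adjusted p = 0.443). P2rx7 was dim, with means of 4.62 in BLZ945 and 4.42 in Vehicle, so a change there may be understated. Pycard and P2rx7 were singled out after their values were seen. Of 15 measured genes of receptor signalling, limma called 0, where 7.94% of all genes passed. An unadjusted p under 0.05 was found for 2 of them, and for 2802 of all 12394 genes. The 2 were the kinase gene Map3k8 (0.53, adjusted p = 0.0692) and the adaptor gene Myd88 (-0.29, adjusted p = 0.206).

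Of 11 measured genes of the interleukin-12 and interferon gamma axis, through which interleukin-18 acts on lymphocytes, 2 rose and 0 fell, against 2.6% and 5.34% of all genes (median 0.17). They were Irf8, a transcription factor of the macrophage lineage (0.49, adjusted p = 0.0144), and Ifngr2, which encodes a subunit of the receptor for interferon gamma (0.75, adjusted p = 0.0165). Of 9 other measured interleukin-1 family genes limma called 0 (7.94% of all genes), with 1 at an unadjusted p under 0.05 (2802 of all 12394 genes). That gene was Il18r1, a chain of the interleukin-18 receptor found on natural killer and T cells, at 4.09 ± 0.67 in BLZ945 and 3.46 ± 0.11 in Vehicle (0.63 higher, adjusted p = 0.0894). Its range was 3.38 to 5.16 in BLZ945 and 3.32 to 3.60 in Vehicle. Il1f9, the older symbol under which the array lists the interleukin-36 gamma gene, came next (0.36, adjusted p = 0.314). Among natural killer and T cell markers 0 of 8 passed in limma, where 7.94% of all genes did. Each was higher on average in BLZ945, and their list mean spanned 4.53 to 5.98 in BLZ945 and 4.13 to 5.13 in Vehicle. Gzma, a granule protease gene and the brightest of that list, differed by 1.83 (adjusted p = 0.0506) and Nkg7 by 1.03 (adjusted p = 0.0588). Gzma, Nkg7, Cd3g and Ncr1 had an unadjusted p under 0.05, as did 2802 of all 12394 genes. The part of natural killer and T cells in the Il18r1 values was not tested.

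**Figure D4:**
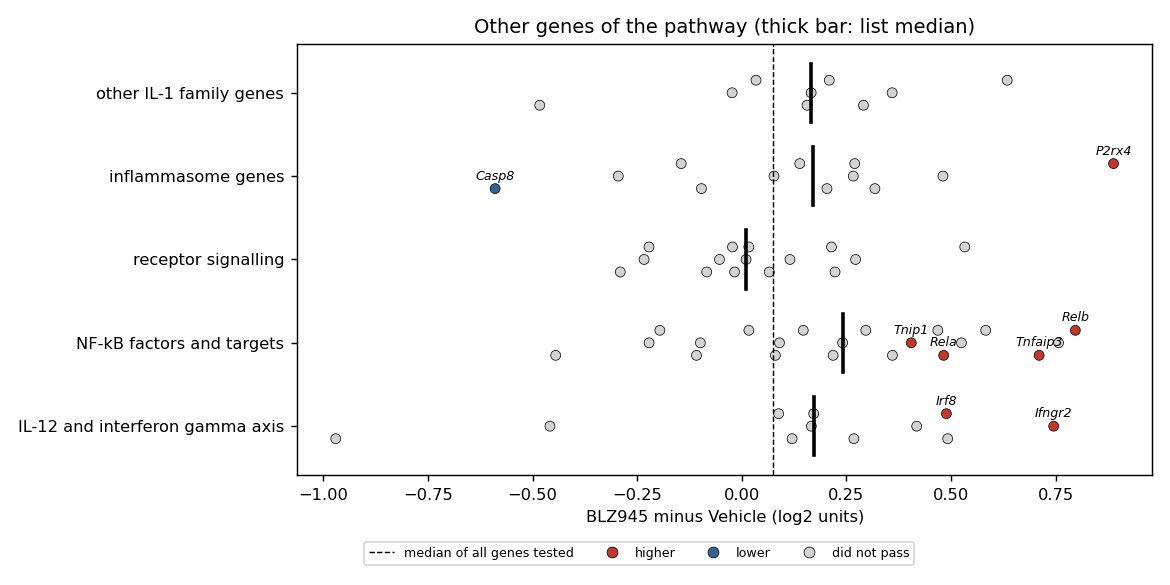
BLZ945 minus Vehicle difference in log2 units (horizontal axis) of each measured gene in the 5 surrounding lists, 1 point per gene, with vertical spread only for visibility. Thick bars are list medians, the dashed line is the median of all genes at 0.07, and the genes that passed are named: 7 higher and Casp8 lower.

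Covariation between members was read within each group of 8 mice, for 7 pairs and 14 relations in all. In BLZ945 mice Nlrp3 followed Il1b closely (r = 0.93, rho = 0.98, exact permutation p = 0.000223 and 0.000397, adjusted over the 14 relations 0.00313 and 0.00556), and r was 0.87 without BLZ945 5 and 6, the mice farthest from the Il1b median. In Vehicle mice the same pair had r = -0.22 and rho = -0.07 (exact permutation p = 0.613 and 0.874). Il1rn followed Il1b in Vehicle mice (r = 0.88, rho = 0.79, exact permutation p = 0.00546 and 0.0279, adjusted 0.0382 and 0.130), and r was 0.97 without Vehicle 2 and 8. Both genes were higher in Vehicle 5, 6 and 7 than in Vehicle 3, 4 and 8, whose labelled volumes were smaller. The part of volume in this relation was not tested. In BLZ945 mice r of Il1b and Il1rn was -0.69 (rho = -0.45, exact permutation p = 0.0524 and 0.267) and 0.07 without BLZ945 5 and 6. Casp1 followed Il18 in BLZ945 mice (r = 0.85, rho = 0.81, exact permutation p = 0.00940 and 0.0218, adjusted 0.0439 and 0.130), but r was 0.55 without BLZ945 4 and 6, and -0.31 in Vehicle mice. The difference of a correlation between the groups was not tested. With quantile normalization repeated, the pair in BLZ945 of Il1b and Nlrp3 still passed by Pearson's r (adjusted exact permutation p = 0.00833). Il1b with Il1rn in Vehicle (r = 0.87, adjusted exact permutation p = 0.0535) and Il18 with Casp1 in BLZ945 (r = 0.69, adjusted exact permutation p = 0.165) did not. The remaining relations of the 14 did not pass after adjustment.

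**Figure D5:**
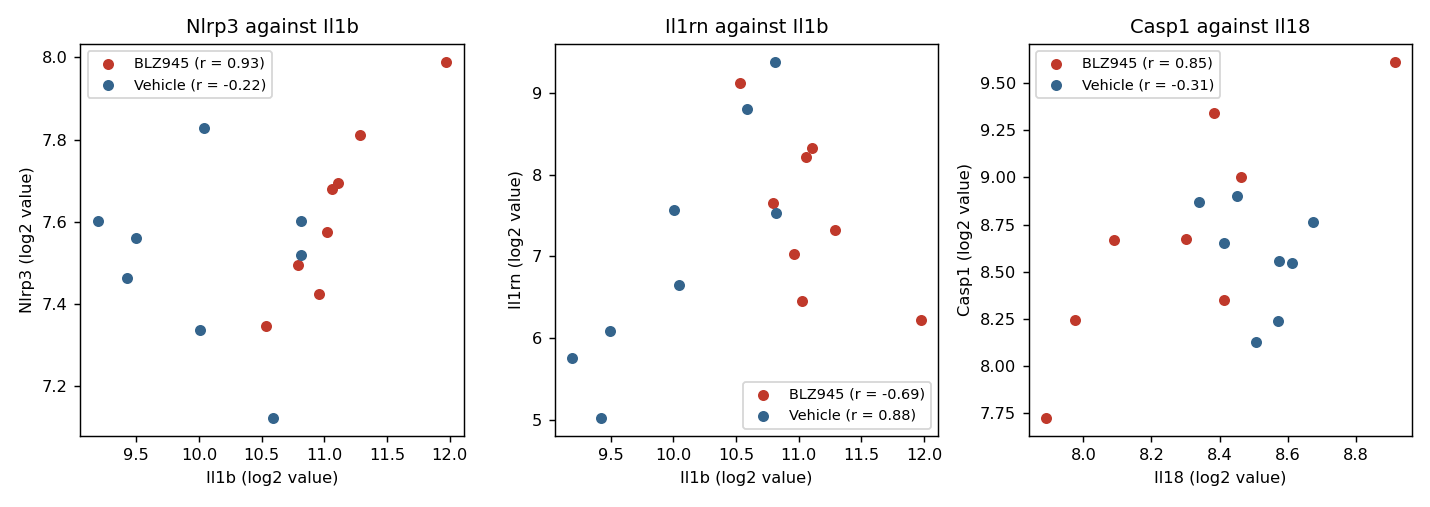
Log2 values of Nlrp3 against Il1b, Il1rn against Il1b, and Casp1 against Il18, 1 point per mouse, coloured by group, with Pearson's r within each group in the legend. BLZ945 mice follow a line in the first panel (r = 0.93) and Vehicle mice in the second (r = 0.88).

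The genes whose values followed each changed member most closely were ranked by Pearson's r after each group's mean was subtracted, over 16 mice that share these arrays, as a description. For Il1b they were the chemokine receptor gene Cxcr4 (0.86), the transcriptional repressor gene Hes1 (0.82), the prostacyclin receptor gene Ptgir (0.81), Ciao3 (0.78) and Fam160a2 (0.78). For Il18bp they were Gm9706 (0.86), Tnfaip2 (0.85), Flt1 (0.83), the beta-glucan receptor gene Clec7a (0.83) and Tmem51 (0.83), and for Il1r1 they were Ints11 (0.85), Dffb (0.82), Pdgfc (0.82), Chmp6 (0.81) and Fcgrt (0.81). For Il1rap they were Cacng5 (0.87), Nap1l5 (0.87), the smooth muscle actin gene Acta2 (0.85), the malic enzyme gene Me1 (0.85) and Dpysl3 (0.83). Of these 20 genes, Fam160a2 (0.54) and Clec7a (0.83) rose in BLZ945, and Nap1l5 (-1.54), Me1 (-0.80) and Dpysl3 (-1.19) fell (adjusted p from 0.00650 to 0.0483), where 2.6% of all genes rose and 5.34% fell.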

How the data were processed

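Affymetrix 3' expression arrays were run on RNA of sorted macrophages, 1 per mouse, from 75 ng of total RNA per the labels' protocols. The authors deposited log2 values per probe set. GCOS 1.4 and RMA are named, with no roles, per the submitters' processing notes, and the sources used here give no build. RMA compresses differences of dim probe sets. Without scanner intensities no background call was possible, and precision is limited by the 16 arrays. Of 22690 probe sets, 20393 had 1 symbol, 691 several and 1606 none, and 20364 symbols were found by gene identifier in a RefSeq table, which altered 0. The probe set with the highest mean stood for each of 12394 genes. The highest correlation between 2 arrays was 0.991. The agent was tested with limma 3.58.1 (R 4.3.3; lmFit and eBayes without covariates), with p-values adjusted by Benjamini-Hochberg over all genes, and single p-values of genes are limma's. Correlations within groups used exact permutation of 8 mice. The members, 5 gene lists and 12 marker lists were chosen with earlier results of these data known. Named genes are the members, Csf1r and the 5 genes most like a changed member. From each list they are up to 4 changed genes, or else the 2 with the smallest p. The 2 brightest of marker lists that move with a result are also named. Itgam, Pycard and P2rx7 were added after their values were seen, and so was the choice of genes named from the natural killer and T cell list. Promoter windows came from RefSeq, and no protein sequence is shown. The agent fit without covariates was tested on simulated data, the correlation code on a perfect line and the motif search on a made string. The covariate, interaction, slope and subset fits were not simulated. Alternatives covered probe sets, dim genes, normalization, eBayes settings, array weights, covariates, subsets of mice, a replicate block and each mouse left out.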

Additional observations from a re-analysis of the deposited data

How the results depend on the processing

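Of the 10 members, 4 passed also without dim genes, with quantile normalization repeated, with a trended or robust eBayes fit, with array weights, and with sex, the spread of an array's values or the neutrophil markers as covariate, and without any 1 mouse (4 to 4). The replicate numbers shared by the groups do not come from a stated pairing, and correlations of same-numbered mice ran from -0.48 to 0.39; with the replicate number as a block 4 members passed too. With age cohort, log2 labelled volume or monocyte markers as covariate 0 members passed, by limma, where 215, 15 and 20 of all genes passed. With glioma or microglia markers as covariate, 2 fits added after the data were seen, 0 passed, where 110 and 218 of all genes did. Under these 5 covariates the differences of the 4 called genes kept their direction, and ranged from 0.17 to 1.09 for Il1b, 0.39 to 0.53 for Il1r1, -1.78 to -0.26 for Il1rap and 0.43 to 2.24 for Il18bp. In mice of 11.29 weeks and in males 0 passed, and in females 2. The monocyte marker means of the groups do not overlap, and the glioma marker means overlap only from 5.94 to 6.06. The age cohorts share 4 mice per group, and the volumes do not overlap. In these mice the agent therefore cannot be fully told apart from any of these, and the cause was not tested further. The sign turned only in members that had not passed. Il18 differed by 0.034 with age cohort as covariate and in mice of 11.29 weeks, 0.024 with monocyte markers and 0.045 in males. Il1rn differed by -1.18 with volume, -0.28 with glioma and -0.57 with microglia markers, and Il1a by -0.22 and -0.13 with the last 2. Casp1 differed by -0.72 with volume, -0.11 with glioma and -0.11 with microglia markers, -0.033 in females and -0.011 without BLZ945 6 (0.26 at most without another mouse). With probe sets averaged, Il1rap differed by -0.58 (adjusted p = 0.0798) and 3 members passed. With quantile normalization repeated 1 of 14 pair relations passed by Pearson's r, Nlrp3 with Il1b in BLZ945 mice, in place of 3. By Spearman's rho only that relation passed, both before and after (adjusted exact permutation p = 0.00556 and 0.0347).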
